A study of Homo sapiens with 8 samples.

Results

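The comparison described here is that of MM1.S cells given C24 with MM1.S cells given the solvent DMSO, over all 16295 genes listed for the 4 libraries of these groups, 4 of the 8 libraries in the series. C24 was given at 0.5 uM for 24 h. The other groups received MS177N1 or MS177 at the same dose and for the same time, and each group has 2 libraries. MM1.S is an established line of multiple myeloma, a cancer of plasma cells, and all groups are the same line in the same medium. C24 is an inhibitor of EZH2, MS177 is a degrader built from it that recruits the CRBN ubiquitin ligase to EZH2, and MS177N1 is a control compound close to MS177 without the degrading activity. Of the listed genes, 14164 had enough reads to be tested.

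EZH2 is the catalytic subunit of Polycomb repressive complex 2 (PRC2), which methylates lysine 27 of histone H3 and keeps developmental regulators and other genes silent. An inhibitor of its catalytic site blocks the methylation and leaves the protein in place, whereas a degrader removes the protein. The methyl mark is removed by demethylases and diluted as cells divide. Histone methylation was not analysed here, so the libraries give the RNA of treated cells and no readout of the enzyme itself.

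Plasma cell markers were abundant in every library. For SDC1, the plasma cell surface proteoglycan CD138, the DMSO libraries gave 28445 and 29160 normalized reads (reads divided by the library's size factor) and the C24 libraries 26557 and 25857. For TNFRSF17, the receptor BCMA, the values were 4075 and 4218 in DMSO and 4064 and 4072 with C24. Markers of T and NK cells, 3 of 9 in the table, summed to 76.0 to 109 reads in DMSO and 75.3 to 97.3 with C24, against 723802 to 732339 and 723250 to 725032 for the 39 measured plasma cell identity genes. In bulk RNA, fewer cells of a type and less RNA per cell cannot be told apart. Replicate libraries differed with a robust SD of 0.187 on the log2 scale in DMSO and 0.14 with C24.

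Transcripts moved little with C24, and those that did were mostly the cell's own mitochondrial messages. Of 14164 genes tested, 13 (0.0918%) were called, 3 higher (0.0212%) and 10 lower (0.0706%) with C24. The 3 that rose were DDIT4, BHLHE40 and PLA2G4B. The 10 that fell were 9 genes of the mitochondrial genome and RP5-857K21.6, an entry named by its clone. In these 9 genes the MS177N1 and MS177 libraries also lay below both DMSO libraries. At an unadjusted p under 0.05 there were 762 genes (5.38%), 375 higher (2.65%) and 387 lower (2.73%). The fitted difference exceeded 1.5-fold in 989 genes (6.98%) and 2-fold in 348 (2.46%), and 346 of the 348 averaged under 100 reads in the MS177N1 libraries. Without the MS177 libraries in the fit, 12 genes were called higher and 16 lower, with all 13 of the genes above among them.

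**Figure D1:**
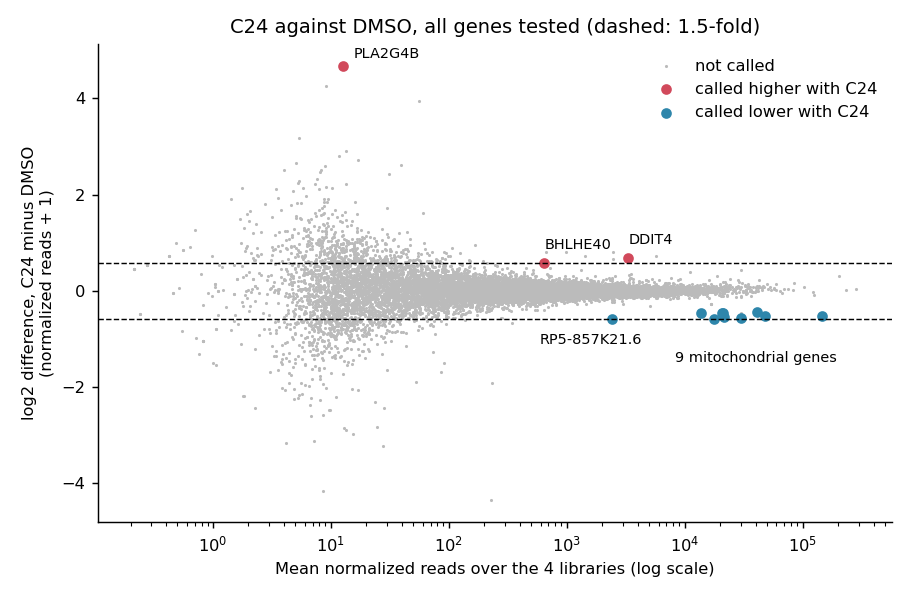
Each point is 1 of 14164 genes, with its mean normalized reads over the 4 C24 and DMSO libraries on a log axis and its log2 difference (C24 minus DMSO) on the other, and dashed lines mark 1.5-fold. The 10 genes called lower sit among well-expressed transcripts near the lower line, while most large differences belong to genes with few reads that were not called.

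DDIT4 (also called REDD1) encodes a stress-induced brake on the growth kinase complex mTORC1 and is a known target of ATF4, of hypoxia-inducible factors and of glucocorticoid. Its normalized reads were 2589 and 2528 in DMSO and 3968 and 4181 with C24. They were 2879 and 2940 with MS177N1 and 12185 and 11333 with MS177. Both C24 libraries thus lay above both DMSO libraries and both MS177N1 libraries, and far below both MS177 libraries. In 18% of genes tested both C24 libraries lay above both DMSO libraries. The log2 difference of C24 from DMSO was 0.67 (SE 0.052, 95% interval 0.56 to 0.78, adjusted p 1.59e-05). DDIT4 was called again under every alternative setting that was run, with each C24 or DMSO library left out included.

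BHLHE40 (DEC1) encodes a basic helix-loop-helix repressor that takes part in the circadian clock and in hypoxic responses. Its normalized reads were 545.9 and 492.2 in DMSO, 762.6 and 784.1 with C24, 633.7 and 673.0 with MS177N1, and 1320 and 1297 with MS177. No C24 value overlapped a DMSO value, as in 18% of genes tested with C24 higher, and the MS177N1 values lay between them. The log2 difference of C24 from DMSO was 0.58 (SE 0.081, adjusted p 0.00337). The call was lost without DMSO replicate 2, without C24 replicate 1 and without C24 replicate 2.

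The promoters of DDIT4 and BHLHE40 are shown because these are the well-expressed genes that rose. Both are also described as targets of hypoxia-inducible factors, whose sites often hold the letters ACGTG. Such sites can hold GCGTG instead, a form that was not marked or counted here. The sequences are RefSeq's on GRCh38.p14, from 250 bases before to 50 bases after the gene start, chr10:72273674-72273973 on the plus strand for DDIT4 and chr3:4979187-4979486 on the plus strand for BHLHE40. Capitals mark ACGTG or its reverse complement CACGT.
DDIT4: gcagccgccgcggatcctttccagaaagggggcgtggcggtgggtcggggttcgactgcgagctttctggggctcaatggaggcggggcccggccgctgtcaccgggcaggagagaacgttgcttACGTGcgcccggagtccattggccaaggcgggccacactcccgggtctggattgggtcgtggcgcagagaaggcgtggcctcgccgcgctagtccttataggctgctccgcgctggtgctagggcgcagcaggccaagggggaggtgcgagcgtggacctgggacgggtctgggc
BHLHE40: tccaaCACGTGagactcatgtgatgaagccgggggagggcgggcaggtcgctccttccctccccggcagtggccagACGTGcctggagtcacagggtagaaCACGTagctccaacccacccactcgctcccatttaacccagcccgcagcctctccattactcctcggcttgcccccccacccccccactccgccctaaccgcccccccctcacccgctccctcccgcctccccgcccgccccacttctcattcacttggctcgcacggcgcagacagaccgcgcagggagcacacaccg
The DDIT4 window holds 1 match and the BHLHE40 window 4, of which 2 overlap in the palindromic E-box CACGTG, a site type bound by basic helix-loop-helix factors. Of 27305 promoters of this length, 21.6% hold ACGTG on either strand and 7.43% hold CACGTG. Both windows are rich in CpG, with 30 CpG in DDIT4 and 22 in BHLHE40 against a median of 14 over all these promoters. A match of letters is a description of the window and says nothing of which factor was bound in these cells.

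The 4 lists in this paragraph were assembled after these values were seen, from genes that share these inducers or roles. That DDIT4 or BHLHE40 was a called member was thus fixed in advance, and 0.0918% of all genes tested were called. In the list of hypoxia targets DDIT4 and BHLHE40 were the 2 called of 28 tested. The list's median log2 difference was 0.0033, beside 0.0016 for all genes tested. Among 18 mTORC1 brakes and sestrins DDIT4 was the 1 called, with a median of -0.05. Among 20 circadian clock genes BHLHE40 was the 1 called, with a median of 0.03, and CRY1, a core clock repressor, was at -0.15 (adjusted p 0.92). Among 19 glucocorticoid targets DDIT4 was the 1 called, with a median of 0.04, and TXNIP was at -0.22 (adjusted p 0.218).

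PLA2G4B, a cytosolic phospholipase A2 gene, was at 0 reads in both DMSO libraries and at 18.8 and 32.1 normalized reads with C24. It had 5.25 and 18.2 with MS177N1 and 10.7 and 5.61 with MS177, so DMSO was the group that stood apart. Against a floor of 3 reads over the DMSO group, it was at least 16.5-fold higher with C24 (adjusted p 0.0164). It overlaps the readthrough gene JMJD7-PLA2G4B, so assignment of its reads is uncertain. The call was lost with a pseudocount of 5, with voom weights, with the 2 groups fitted alone and with any of the 4 C24 and DMSO libraries left out.

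**Figure D2:**
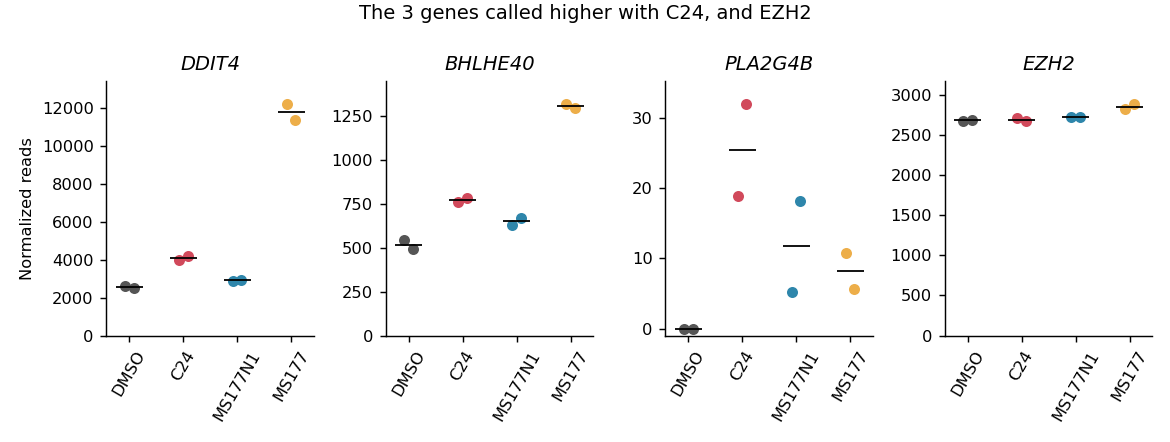
Normalized reads of DDIT4, BHLHE40, PLA2G4B and EZH2 in each of the 8 libraries (points), with the mean of each group (line). DDIT4 and BHLHE40 with C24 lie between the MS177N1 and MS177 libraries, PLA2G4B is at 0 in both DMSO libraries, and EZH2 stays between 2665 and 2713 reads across the DMSO and C24 libraries.

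The mitochondrial genome encodes 13 subunits of the respiratory chain and ATP synthase along with 2 ribosomal RNAs, and its genes are transcribed as long precursors that are then cut into single messages. With C24, 9 of the 13 messages were called lower, and their levels fell to between 66.2% and 74.0% of the DMSO mean, a log2 difference between -0.59 and -0.44 (SE 0.039 to 0.061, adjusted p 3.78e-05 to 0.00315). The 9 cover complex I (MT-ND1, MT-ND2, MT-ND4, MT-ND5, MT-ND6), complex III (MT-CYB), complex IV (MT-CO1, MT-CO2) and ATP synthase (MT-ATP6). All reads of mitochondrial genes made up 2.32% and 2.31% of the library in DMSO and 1.66% and 1.64% with C24.

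MT-CYB, cytochrome b of complex III, was at 21228 and 21795 normalized reads in DMSO and at 14279 and 14213 with C24, a log2 difference of -0.59 (SE 0.057, adjusted p 0.000111). MT-CO1, the catalytic core of complex IV, had 169648 and 174847 in DMSO and 118858 and 119905 with C24, a difference of -0.53 (SE 0.049, adjusted p 0.000271). MT-ND1, a membrane subunit of complex I, had 25963 and 25004 in DMSO and 17888 and 17162 with C24, a difference of -0.54 (SE 0.048, adjusted p 3.78e-05). In each of these genes the gap between the groups was many times the gap between replicates. MT-ATP6, a proton channel subunit of ATP synthase, went from 24482 and 23244 to 17457 and 17115, a difference of -0.46 (SE 0.047, adjusted p 0.000111). MT-ND6 is encoded on the opposite strand from the other 12 messages. It had 16859 and 15387 reads in DMSO and 11463 and 11775 with C24, a difference of -0.47 (SE 0.061, adjusted p 0.00315). How strand was counted is not given in the sources used here, so its reads may include transcripts of the other strand, and its call was lost without DMSO replicate 1 and without either C24 library.

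The 4 messages that were not called lower were MT-CO3, MT-ATP8, MT-ND3 and MT-ND4L. MT-CO3, a complex IV subunit, had 35503 and 34684 reads in DMSO and 27225 and 23492 with C24. Its difference of -0.47 (SE 0.082, adjusted p 0.274) lay in the range of the called genes, with C24 replicates further apart. MT-CO3 was called in some other fits, with an adjusted p of 0.0315 without the robust option, 0.0161 with the 2 groups alone, 0.00949 without C24 replicate 1, 0.00448 and 0.0045 without either MS177N1 library, and 0.0124 with size factors of the 4 libraries alone. MT-ATP8, MT-ND3 and MT-ND4L are the shortest of the 13, at 207 bases (MT-ATP8), 346 bases (MT-ND3) and 297 bases (MT-ND4L). MT-ND3 had 11986 and 8631 reads in DMSO and 11379 and 9590 with C24, and MT-ND4L had 4794 and 2736 in DMSO and 2949 and 4347 with C24. In both genes the DMSO values overlap the C24 values. MT-ND3 was at 0.04 (SE 0.194, 95% interval -0.48 to 0.56) and was placed within 1.5-fold of DMSO (adjusted p 0.0313), so its interval leaves out the fall of MT-CYB, MT-ND5, MT-ND1, MT-CO1 and MT-ND4. MT-ND4L was at -0.02 (SE 0.4, interval -1.1 to 1.07), an interval that contains the falls of all 9 called messages.

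MT-ATP8 was at -0.36 (SE 0.246, adjusted p 0.92), with 271.9 and 158.6 reads in DMSO and 137.8 and 190.2 with C24. It shares its last bases with the start of MT-ATP6, and the shared stretch in GENCODE's transcripts is shown because reads within it match both genes. It is 46 bases long, 22.2% of MT-ATP8.
shared by MT-ATP8 and MT-ATP6: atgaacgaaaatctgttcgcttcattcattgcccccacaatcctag
The ribosomal RNAs MT-RNR1, at -0.31 (SE 0.065, adjusted p 0.218), and MT-RNR2, at -0.46 (SE 0.078, adjusted p 0.249), were lower in both C24 libraries than in both DMSO libraries and were not called. Such a separation with C24 lower was seen in 17.4% of genes tested. Without the MS177 libraries in the fit both were called, with an adjusted p of 0.0136 for MT-RNR1 and 1.57e-08 for MT-RNR2.

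**Figure D3:**
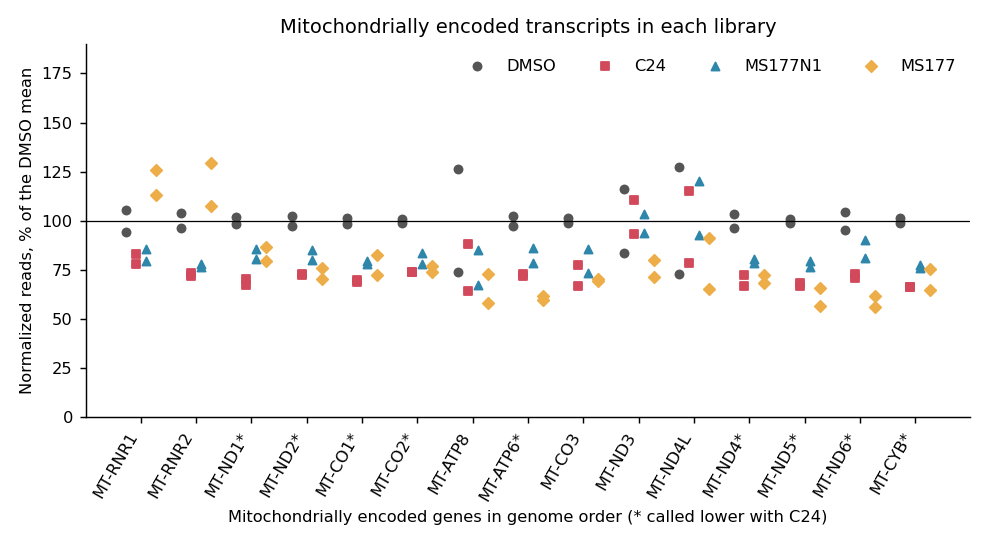
Normalized reads of the 15 tested mitochondrial genes in genome order, as a percentage of the mean of the 2 DMSO libraries, with 2 points per group and an asterisk on the 9 genes called lower with C24. The C24 points of the asterisked genes lie between 66.1% and 74.0% of DMSO with the MS177N1 points above them, and MT-ATP8, MT-ND3 and MT-ND4L show DMSO replicates far apart.

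RP5-857K21.6 was at 3076 and 2726 reads in DMSO and at 1825 and 2032 with C24, a log2 difference of -0.59 (SE 0.075, adjusted p 0.00145). As background, its clone lies in a stretch of chromosome 1 that holds a nuclear copy of mitochondrial DNA, so its reads cannot be told apart from mitochondrial ones by these counts. The call was lost without DMSO replicate 1 and without C24 replicate 1.

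Most nuclear genes for the same respiratory complexes were close to their DMSO level, with members from -0.13 to 0.81 on the log2 scale. Of 58 nuclear oxidative phosphorylation subunits tested, 0 were called by limma, 4 were higher and 0 lower at an unadjusted p under 0.05, and 53 were placed within 1.5-fold of DMSO. Across all genes tested 71.2% were, and across genes over 1000 reads in the MS177N1 libraries 99.2%. The median member of this list had 3592 reads. The median log2 difference of the 58 was 0.05. It was 0.09 without DMSO replicate 1 and 0.0069 without DMSO replicate 2, and the DMSO replicates themselves differed by a median of 0.09. Of 76 mitochondrial ribosomal proteins, which build the ribosome that translates the mitochondrial messages, 0 were called, 4 were higher and 0 lower at an unadjusted p under 0.05, and all 76 were within 1.5-fold, with a median of 0.02 (0.05 without DMSO replicate 1 and -0.0083 without DMSO replicate 2). Of the 25 genes for mitochondrial ribosomal RNA and transcription, the 2 ribosomal RNAs among them, 0 were called, 0 were higher and 4 lower at that p, and 24 were within 1.5-fold. The fits with voom weights and on the deposited log2 values called 0 members of these lists and of the lists described next, DDIT4 apart. Other fits did call some, and those named here are not all of them. MT-RNR2 was called with the replicate block, without the robust option, with the 2 groups alone and without the MS177 libraries. MT-RNR1 was called with the replicate block and without the MS177 libraries. COX6C of complex IV, IGJ and CCL3 were called without the MS177 libraries. TEFM, the mitochondrial transcription elongation factor, was at 0.2 (SE 0.161, adjusted p 0.934).

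Transcripts of the inhibitor's target and its partners stayed level. EZH2 was at 2676 and 2687 reads in DMSO and at 2713 and 2665 with C24, a log2 difference of 0.0042 with a 95% interval from -0.1 to 0.11. EED, the subunit that reads the methyl mark, was at 0.07 (interval -0.10 to 0.24) and SUZ12, the scaffold subunit, at -0.03 (interval -0.14 to 0.07). All 14 PRC2 subunits tested were within 1.5-fold of DMSO, with a median of 0.0085. The lowest of them was PHF1, an accessory subunit that binds a methylated histone, at -0.27 (SE 0.089, adjusted p 0.795). At an unadjusted p under 0.05 PHF1 was the 1 member lower and 0 were higher. Of 24 PRC1 subunits 0 were called, 2 were higher and 0 lower at that p, and 21 were within 1.5-fold. The H3K27 demethylase genes were also within it, KDM6A at 0.03 and KDM6B at -0.17 (adjusted p 0.92).

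Genes that PRC2 keeps silent in many cell types showed no called rise after 24 h. Of 100 developmental Polycomb targets listed, 40 were in the table and 28 had enough reads to test. Of the 28, 0 were called, 0 had an unadjusted p under 0.05 in either direction, and 11 were placed within 1.5-fold. Their median log2 difference was -0.01. PAX6, an eye and brain transcription factor, was at 47.3 and 49.99 reads in DMSO and 43.7 and 66.4 with C24, and IRX5, a homeobox factor, at 167.3 and 186.5 in DMSO and 147.2 and 131.6 with C24. The 12 listed genes that were in the table and not tested averaged at most 5.75 reads over the 4 libraries, and all 40 together summed to 3165 and 3010 reads in DMSO and 3196 and 2925 with C24.

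A second list, of 45 genes described as repressed by EZH2 in cancer cells, had 36 members tested. Of these 0 were called, 24 were within 1.5-fold, 3 were higher and 3 lower at an unadjusted p under 0.05, and the median was 0.06 (0.03 without DMSO replicate 1 and 0.02 without DMSO replicate 2). MICA, a stress ligand for NK cells, was at the top among well-measured members at 0.32 (interval -0.10 to 0.73, adjusted p 0.91). TXNIP, a thioredoxin inhibitor, was at the bottom, with 3207 and 3131 reads in DMSO and 2738 and 2704 with C24. Its difference was -0.22 (SE 0.047, adjusted p 0.218). CDKN1A, the p21 inhibitor of cyclin-dependent kinases, was at 0.16 (interval 0.01 to 0.31, adjusted p 0.908), CDKN1C was at -0.05, and KLF2 was at -0.16 (adjusted p 0.908). At this depth, with few reads on many silent genes, a rise from near 0 to a few reads would not be detectable.

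Most genes of the myeloma program and the cell cycle were placed within 1.5-fold of DMSO, as were most genes at their level. Of all genes over 1000 reads in the MS177N1 libraries 99.2% were so placed. Median reads were 5381 for the plasma cell list, 4390 for MYC targets, 1988 for G1/S and 1592 for G2/M. IRF4, the transcription factor on which myeloma cells depend, was at -0.03 (95% interval -0.11 to 0.06), PRDM1 at 0.0019 (-0.11 to 0.11) and MYC at -0.07 (-0.17 to 0.03). Of 39 plasma cell identity genes 0 were called, 3 were higher and 4 lower at an unadjusted p under 0.05, 35 were within 1.5-fold and the median was -0.004. The highest well-measured member was CCND1, cyclin D1, which was not placed within 1.5-fold (difference 0.31, interval -0.05 to 0.67, adjusted p 0.91). XBP1, the secretory regulator, had 31974 and 31433 reads in DMSO and 28979 and 28870 with C24, a difference of -0.13 (interval -0.21 to -0.05, adjusted p 0.591). Its groups do not overlap, as in 17.4% of genes tested with C24 lower. IKZF1 was at 0.12 and IKZF3 at 0.06, and CRBN was at -0.05, none of them called.

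Of 70 MYC targets 69 were within 1.5-fold with a median of 0.03. Of 60 genes of the G1/S transition and DNA replication 59 were, with a median of 0.01, and of 70 genes of G2/M and mitosis all 70 were, with a median of 0.0001. Without DMSO replicate 1 these medians were 0.01, -0.02 and -0.02, and without DMSO replicate 2 they were 0.04, 0.0081 and 0.03. These 3 lists had 0 called members. At an unadjusted p under 0.05 the MYC targets had 4 higher and 1 lower, the G1/S genes 1 higher and 0 lower, and the G2/M genes 0 higher and 4 lower. All 36 proteasome subunits and all 35 translation factors tested were within 1.5-fold as well, near the 99.2% of all genes over 1000 reads.

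DDIT4 was the 1 called gene of 45 tested from the ATF4 and integrated stress response list, whose median was -0.05. At an unadjusted p under 0.05, 2 other members were higher and 6 were lower, beside 2.65% and 2.73% of all genes tested. DDIT3, the CHOP factor of this response, had 166.2 and 171.1 reads in DMSO and 217.4 and 206.8 with C24, a difference of 0.33 (interval 0.09 to 0.57, adjusted p 0.823). SLC7A11, the cystine transporter and a standard ATF4 target, was at -0.36 (SE 0.129, adjusted p 0.897). ATF3 was at 0.12 (adjusted p 0.91). Of 53 genes of the unfolded protein response and ER folding 0 were called and 52 were within 1.5-fold. At an unadjusted p under 0.05, 7 of them were lower and 0 higher, beside the same shares of all genes tested. The median of these 53 was -0.03 (-0.05 without DMSO replicate 1 and -0.0077 without DMSO replicate 2).

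Immune and inflammatory lists also had 0 called members. Of 39 type I interferon-stimulated genes tested 1 was higher and 3 were lower at an unadjusted p under 0.05 and 27 were within 1.5-fold, with a median of -0.02. HERC6, an interferon-induced ubiquitin ligase, had 84.8 and 71.1 reads in DMSO and 125.8 and 131.6 with C24 (difference 0.72, SE 0.165, adjusted p 0.321). Of 30 NF-kB targets and subunits 4 were higher and 0 lower at that p and 21 were within 1.5-fold, with a median of 0.005. CCL4, a chemokine, was at 0.33 (adjusted p 0.797). MHC class II genes had a median of 0.15 over 11 tested, with HLA-DMB, a peptide exchange factor, at 0.31 (adjusted p 0.908), and MHC class I genes a median of 0.08 over 17 (0.03 without DMSO replicate 2). Each of these MHC lists had 1 member higher and 0 lower at an unadjusted p under 0.05.

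Small shifts shared by many members were seen in a few well-expressed lists without any called gene. Of 27 cholesterol synthesis and uptake genes, all within 1.5-fold, 23 were lower and 4 higher, with a median of -0.08 (middle quartiles -0.11 to -0.05). Of all 14164 genes tested 6984 were lower and 7156 higher. At an unadjusted p under 0.05, 2 members were lower and 0 higher, beside 2.73% and 2.65% of all genes tested. With the trend over transcript length removed, as described below, 0 members were lower at that p and the median was still -0.08. The list's median deviation from the DMSO mean was -0.09 and -0.08 in the C24 libraries, -0.11 and -0.12 with MS177N1, and -0.61 and -0.68 with MS177. MVK, mevalonate kinase, was the lowest at -0.23 (adjusted p 0.91) and NSDHL, a later enzyme of the pathway, the highest at 0.13 (adjusted p 0.91).

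Of 78 cytosolic ribosomal proteins, 68 were higher and 10 lower with C24, and the median was 0.06. At an unadjusted p under 0.05, 15 were higher and 1 was lower, beside 2.65% and 2.73% of all genes tested. The replicates bear on this list. Its median was 0.06 higher in DMSO replicate 1 than in DMSO replicate 2, as large as the difference between the groups. It was 0.1 without DMSO replicate 1 and 0.03 without DMSO replicate 2. RPS29, with 6060 and 2886 reads in DMSO and 7181 and 6689 with C24, was at 0.73 (SE 0.488, adjusted p 0.928). RPS27, with 29094 and 22290 in DMSO and 37330 and 31670 with C24, was at 0.43 (adjusted p 0.91).

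Transcript length moved with these gaps. Among 67 genes with transcripts under 500 bases and an average of at least 100 reads, the median difference of C24 from DMSO was 0.07 and the median gap of DMSO replicate 1 over DMSO replicate 2 was 0.22. Among 1425 genes with transcripts over 4000 bases those medians were 0.0042 and -0.07. Between the C24 replicates the short class differed by 0.03. With the trend over length removed from each library, an alternative chosen after seeing the data, all 13 called genes were still called and ZNF740 was added. The median of the cytosolic ribosomal proteins was then 0.06 and that of the mitochondrially encoded genes -0.48. Of the cytosolic ribosomal proteins, 19 were then higher and 2 lower at an unadjusted p under 0.05. The part of length in each uncalled gene was not tested.

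**Figure D4:**
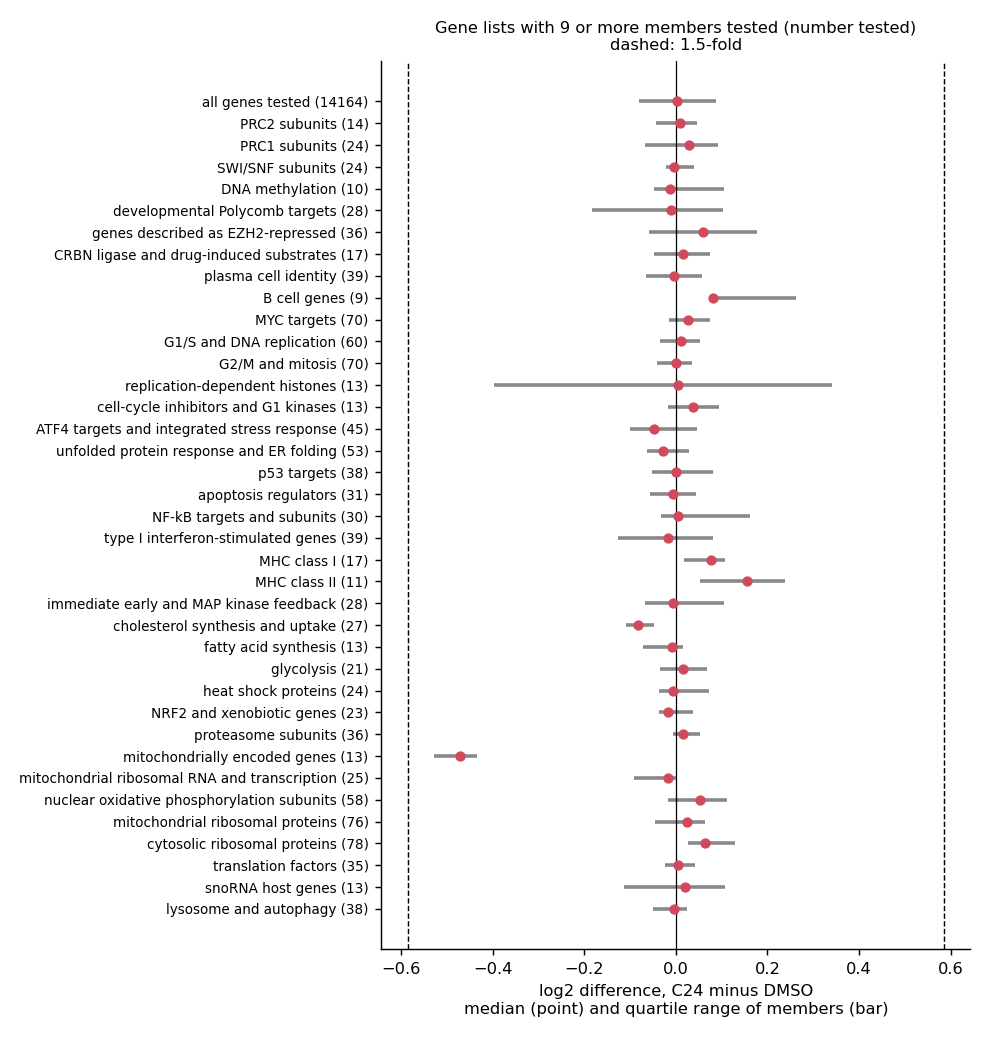
Median log2 difference (C24 minus DMSO, points) and quartile range of the members (bars) for each list with 9 or more members tested, with all 14164 genes at the top and dashed lines at 1.5-fold. Mitochondrially encoded genes, at -0.47, lie apart from the other lists, whose medians run from -0.08 for cholesterol synthesis and uptake to 0.15 for MHC class II.

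Some genes missed the threshold in the fit of all 8 libraries. RARA, the retinoic acid receptor alpha, had 3106 and 2922 reads in DMSO and 3672 and 3881 with C24 (difference 0.33, SE 0.062, adjusted p 0.0786). IGJ, the joining chain of secreted antibodies, had 80811 and 79845 in DMSO and 87681 and 91017 with C24 (difference 0.15, adjusted p 0.208). LY75-CD302, a readthrough of 2 lectin receptor genes whose reads are uncertain, had 102.4 and 124 in DMSO and 186.6 and 255.5 with C24 (difference 0.95, adjusted p 0.0738). In RARA, IGJ and LY75-CD302 alike the groups did not overlap, as in 18% of genes tested with C24 higher. These genes were named for their small p, which favours such a separation.

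When the MS177 libraries were left out of the fit, 15 further genes were called, and these 3 were among them, with adjusted p of 0.0011 for RARA, 0.0107 for IGJ and 0.0104 for LY75-CD302. The others that rose included the chemokine CCL3 (8800 and 8026 reads in DMSO, 10063 and 9956 with C24, difference 0.25), COX6C of complex IV (1625 and 1504, then 1909 and 1937, difference 0.3), the scaffold AHNAK (difference 0.26) and the imprinted gene PEG10 (difference 0.25). Those that fell included the zinc finger gene ZNF740 (3156 and 3371 in DMSO, 2724 and 2670 with C24, difference -0.27) and the arginine methyltransferase CARM1 (2836 and 2662, then 2357 and 2283, difference -0.24). The spread between MS177 replicates, a robust SD of 0.214, was the widest of the 4 groups, and its part in these calls was not tested.

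Genes with 0 reads in a group were few. With DMSO at 0 in both libraries and C24 averaging at least 10 reads there were 8, and with C24 at 0 in both and DMSO averaging at least 10 there were 7. EAF1-AS1, an antisense RNA, had 23.1 and 24.3 reads with C24 (adjusted p 0.486) and at most 6.43 in any other library. CTD-2545G14.7 had 15.4 and 21.0 with C24 (adjusted p 0.604) and 0 in every other library. Both passed the read filter only through the C24 libraries, so their values carry no weight as a rise. UBE2F-SCLY, a readthrough entry, had 18.7 and 15.4 reads in DMSO and 0 in both C24 libraries (adjusted p 0.461). Most of the rest had reads in only 1 library of the other group. RMRP, the RNA of RNase MRP, had 47.1 and 0 with C24.

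Large differences among better expressed genes came with replicates far apart. Of 11068 genes averaging at least 50 reads, 8 differed by over 2-fold and 0 of the 8 were called. AC006538.4 had 355.5 and 305.7 reads in DMSO and 0 and 257.7 with C24, and RGPD6 had 104.6 and 112.5 in DMSO and 8.56 and 118.3 with C24. In both genes replicate 1 was far below replicate 2 with C24, with MS177N1 and with MS177. RGPD6 had 3.15 and 60.02 with MS177N1 and 5.36 and 91.65 with MS177. AC006538.4 was at 0 in replicate 1 of MS177N1 and of MS177. RPS10-NUDT3 and ZFP91-CNTF, also among the 8, are readthrough genes, and RGPD6 and SLX1B have near-identical copies, so their reads are uncertain.

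Most transcripts could be placed close to their DMSO level. Of the 14164 genes, 10086 (71.2%) were within 1.5-fold, 11715 (82.7%) within 2-fold and 7089 (50%) within a narrow bound of 0.32 on the log2 scale. The share rose with expression level, which was taken from the MS177N1 libraries so that neither group compared set the classes. Among 4718 genes over 1000 reads, 95.2% were within the narrow bound and 99.2% within 1.5-fold, and among 5412 genes at 100 to 1000 reads 48% and 93.7% were. Among 3098 genes at 10 to 100 reads 10.7% were within 1.5-fold, and among 936 under 10 reads 0 were. The median SE was 0.063 in the highest class and 0.724 in the lowest, so for low genes a change of several-fold was not detectable at this depth.

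**Figure D5:**
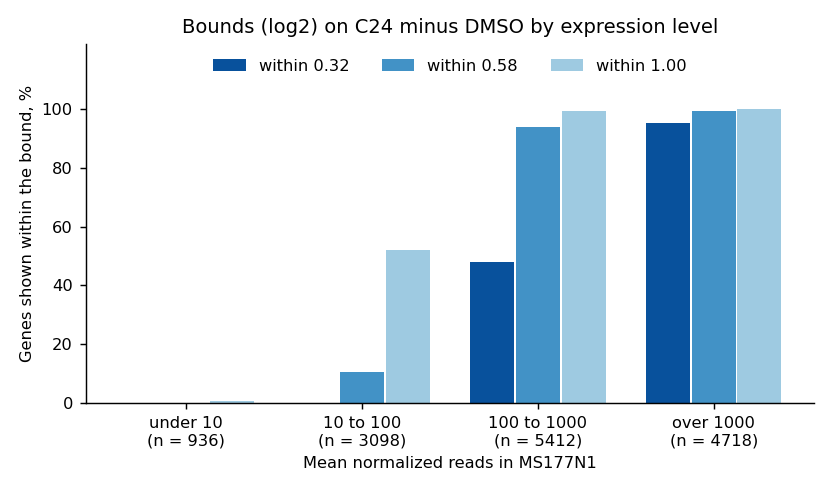
Share of genes (bars, in percent) that 2 one-sided limma tests placed within 0.32, 0.58 or 1 of DMSO on the log2 scale (0.58 is 1.5-fold and 1 is 2-fold), by mean normalized reads in the MS177N1 libraries. The share within 1.5-fold goes from 0 under 10 reads to 99.2% over 1000 reads.

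Among the 4708 genes that averaged at least 1000 reads over the 4 libraries, 25 differed by more than 0.3 on the log2 scale, and 12 of those were mitochondrially encoded. The others included DDIT4, RARA and the transcripts RPS29, PET100, RN7SL1 and RN7SL2, of which the last 4 were not called and had DMSO replicate 2 as the lowest of the 4 libraries. The same held for the nuclear genes of mitochondrial proteins NDUFA1 (0.31), UQCC2 (0.32), ATP5J2 (0.34) and NDUFA3 (0.43). Housekeeping transcripts stayed level. ACTB was at 0.02 (interval -0.06 to 0.09) and GAPDH at 0.08 (interval 0.01 to 0.15).

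C24 was compared with MS177N1 at the same dose and time, 1 of 2 compound pairs tested. Of 14164 genes 2 were called (0.0141%), both higher with C24, and 10139 (71.6%) were within 1.5-fold of each other. DDIT4 was higher with C24 by 0.49 (SE 0.052, interval 0.37 to 0.6, adjusted p 0.00136). AMIGO3, an adhesion gene named after its values were seen, had 0 reads in both MS177N1 libraries and 22.3 and 25.4 with C24, beside 19.8 and 51.9 in DMSO, so MS177N1 was the group that stood apart. Without either C24 library 0 genes were called in this pair, and with the 2 groups fitted alone 28 were.

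The 9 called mitochondrial messages were lower with C24 than with MS177N1 by 0.13 to 0.27 on the log2 scale, with unadjusted p of 4.09e-05 to 0.00439 and adjusted p of 0.193 to 0.997, so none was called. Against DMSO, which both compounds share as control, the same 9 were at -0.59 to -0.44 with C24 and at -0.38 to -0.22 with MS177N1, where 4 of the 9 were called of 5 genes in all (0.0353%). In all 9 genes every MS177N1 library lay below both DMSO libraries and above both C24 libraries. With MS177 the 9 were at -0.77 to -0.27 from the same DMSO libraries, or 58.8% to 83.1% of the DMSO mean. Both MS177 libraries lay below both DMSO libraries in each gene, so a level below DMSO was not particular to C24. For BHLHE40 the difference of C24 from MS177N1 was 0.24 (interval 0.07 to 0.41, adjusted p 0.997). For all 13 genes called with C24 the MS177N1 mean lay between the DMSO and C24 means. The 9 and the 13 genes were picked by a large gap between C24 and DMSO, which favours another group lying between. The share over all genes tested was not computed, so no graded effect of the compounds can be read from these counts.

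MS177 and C24 differed far more widely at the matched dose and time. Of 14164 genes 8233 (58.1%) were called, 4120 higher (29.1%) and 4113 lower (29%) with MS177. Of the 10086 genes within 1.5-fold of DMSO with C24, 6797 (67.4%) were called between MS177 and C24. MYC was lower with MS177 than with C24 by 0.84 (adjusted p 4.99e-10), and 66 of the 70 MYC targets were called lower and 3 higher. Of the 45 genes of the ATF4 list 42 were called higher and 0 lower, with a median difference of 1.37, and DDIT4 was higher by 1.53 (adjusted p 2.47e-12). EZH2 mRNA differed by 0.08 (adjusted p 0.174).

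Mitochondrial messages were closer between MS177 and C24. Of the 13, 2 were called higher and 3 lower with MS177 than with C24, and the median difference was -0.05. MT-CYB, at 13908 and 16253 reads with MS177 and 14279 and 14213 with C24, differed by 0.08 (adjusted p 0.259). The ribosomal RNAs diverged. MT-RNR2 had 49786 and 59879 reads with MS177 and 33170 and 33924 with C24, a difference of 0.7 (adjusted p 7.86e-05), and MT-RNR1 was higher with MS177 by 0.57 (adjusted p 2.68e-06).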

How the data were processed

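RNA-seq libraries of MM1.S cells were analysed in 4 groups (DMSO, C24, MS177N1, MS177) of 2. The deposited table holds log2 values that the authors normalized, per the file headers. Per the submitters' processing notes, STAR 2.4.2, DESeq2 1.38.2, Salmon 0.1.19 and the build hg19 were used, and what each was used for is not given in the sources used here. The values have the form of a variance-stabilizing transformation, which was inverted: 130360 of 130360 values gave whole reads, within 0.01 reads. A count test had been planned for raw counts. Because the deposited unit is log2, limma (3.58.1, in R 4.3.3 with statmod 1.5.0, both the trend and the robust option on) was fitted to log2(normalized reads + 1) of all 8 libraries.

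The filter kept 14164 of 16295 genes: those that reached 10 reads, scaled to the median library, in 2 or more libraries and had a total of 15 or more. A gene was called at a Benjamini-Hochberg adjusted p under 0.05. It was placed within 1.5-fold (0.585 on the log2 scale) when 2 one-sided moderated tests against the bounds gave an adjusted p under 0.05. Reads in listed genes numbered 20444106 to 26619099 in the C24 and DMSO libraries, and the median standard error of a log2 difference was 0.107. The fit was tested on simulated data.

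Genes were named by rule: all called genes, the 10 uncalled genes of smallest p in each direction among those averaging at least 50 reads, a set of EZH2, myeloma, stress and housekeeping genes, the extremes of each list, and genes with 0 reads in 1 group. The 42 lists hold 1325 genes, of which 1163 were tested. Another 4 lists were assembled after values were seen. The members and the lists were chosen with earlier results of these data known. Scaling, pseudocount, filter, model, libraries in the fit and left-out replicates were varied. Transcript lengths came from GENCODE v29 by gene name and covered 88.8% of the genes tested. Promoter sequences came from RefSeq on GRCh38.p14. The labels do not say whether replicates were separate cultures, so p-values measure the spread between these libraries, which may be technical.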

Additional observations from a re-analysis of the deposited data

How the results depend on the processing

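DDIT4 and 8 of the 9 mitochondrial messages (all except MT-ND6) stayed called in each of the settings run for C24 against DMSO. The counts of genes higher and lower, 3 and 10, moved by over 1.5 times in these settings: without the MS177 libraries they were 12 and 16, and with the replicate block 5 genes were called higher, with 15 lower. Leaving out a replicate gave 1 to 12 genes higher and 8 to 16 lower, and PLA2G4B was never called when a C24 or DMSO library was left out. Fits of the block rest on numbers that samples only share. The deviations of same-numbered samples correlated between -0.062 and 0.06 over all genes tested. Low genes weigh as much as others in this correlation, so it cannot show that same-numbered samples are unpaired. For C24 against MS177N1 the count of 2 became 1 with a pseudocount of 5, 15 without the MS177 libraries, 28 with only the 2 groups, and 0 to 2 with a replicate left out (0 without either C24 library, 1 without MS177N1 replicate 1). MS177 against C24 and the count within 1.5-fold stayed within 1.5 times of their values in every setting run. The bounds test on the deposited log2 values was left out because their scale compresses low genes. No direction reversed among called genes. With 2 libraries a group, calls for genes under 100 reads are limited by depth.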

Other observations

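The split of genes at an unadjusted p under 0.05 differed with read level, and its direction depended on single libraries. Of 4034 genes averaging under 100 reads in the MS177N1 libraries, 3.3% were higher and 2.06% lower with C24, and of 10130 genes over 100 reads 2.39% were higher and 3% lower. The lean among low genes was the other way with either C24 library left out: without C24 replicate 1, the deepest of the 4, 2.63% were higher and 3.62% lower, and without C24 replicate 2 the shares were 1.36% and 2.01%. Without DMSO replicate 1 the shares were 5.43% and 2.31%. The lean among genes over 100 reads also turned without DMSO replicate 1, to 3.61% higher and 3.46% lower.

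B cell genes, 9 tested, had a median log2 difference of 0.08 (0.05 without DMSO replicate 1), with 8 higher and 1 lower than in DMSO, and 0 called. At an unadjusted p under 0.05, 3 were higher. CR2, a complement receptor of B cells, was at 0.3 (SE 0.122, adjusted p 0.908). Among heat shock proteins, 24 tested with a median of -0.0069, HSPA1A was at -0.43 (SE 0.174, adjusted p 0.908) and HSPB1 at 0.3 (SE 0.121, adjusted p 0.908).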
